A study of Mus musculus with 14 samples.

Results

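The genes of the constitutive proteasome and its regulators were followed in microglia sorted from mouse retinas. Members were all genes named Psma, Psmb, Psmc, Psmd, Psme, Psmf or Psmg with a number in the authors' series-wide table, without the immunoproteasome genes Psmb8, Psmb9 and Psmb10. This gave 45 of the 47273 genes named there. They comprise 16 core subunits (Psma and Psmb), 20 genes of the cap series (Psmc and Psmd), 4 activators (Psme), the inhibitor gene Psmf1 and 4 chaperone genes (Psmg). RNA of 14 libraries was read by SMART-Seq2, which copies whole transcripts and suits small pools of cells. All came from wild-type C57BL/6 mice aged 12 weeks, with 1 library per retina, of microglia gated as CD11b+, Ly6c- and Fcrls+. The groups were 3 retinas with a microbead injection, described in the labels as glaucoma, 3 contralateral retinas, 4 retinas with a sham injection and 4 naive retinas. The labels do not say which retinas came from the same mouse, or whether the replicates of a group came from different mice, so p-values measure the spread between these libraries.

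The proteasome is the large protease that degrades proteins tagged with ubiquitin. Its barrel-shaped core is built from rings of α subunits, which form the gate, and β subunits, of which Psmb5, Psmb6 and Psmb7 carry the active sites. The cap binds ubiquitin chains, removes them and unfolds the substrate with the Psmc ATPases. Psme1 and Psme2 together form an interferon-induced activator that can replace the cap, and in microglia, as in other phagocytes, the proteasome also supplies peptides for antigen presentation.

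Promoters of the members were read from RefSeq, build GRCm38.p6, for the 250 bases before the transcription start, where 37 of the 45 members matched and Psma8, Psmb1, Psmb2, Psmb7, Psmc3, Psmd3, Psmd7 and Psmg2 did not. The 5 stretches of 200 bases below belong to Psma7, Psmb5, Psmb6, Psmd10 and Psmd14. By read rates not scaled for length, the core gene Psma7 was higher in every microbead than in every sham library. The core gene Psmb6 was likewise higher than in every naive library. Psmb5 was the only core gene with a negative fold change against naive. Psmd10 and Psmd14 had the lowest and the highest fold change of the cap. Capitals mark TGACNNNGC, the core of the antioxidant response element that the factor Nfe2l1 uses on proteasome genes, CCAAT, the box of the factor NF-Y, and CGGAAG, a core that ETS factors bind. A match on the other strand reads ATTGG or CTTCCG.
Psma7, chr2:180042465-180042664, minus strand: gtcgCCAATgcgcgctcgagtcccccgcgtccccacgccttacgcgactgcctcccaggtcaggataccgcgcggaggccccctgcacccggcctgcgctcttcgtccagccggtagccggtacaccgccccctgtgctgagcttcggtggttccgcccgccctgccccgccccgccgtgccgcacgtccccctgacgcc
Psmb5, chr14:54618023-54618222, minus strand: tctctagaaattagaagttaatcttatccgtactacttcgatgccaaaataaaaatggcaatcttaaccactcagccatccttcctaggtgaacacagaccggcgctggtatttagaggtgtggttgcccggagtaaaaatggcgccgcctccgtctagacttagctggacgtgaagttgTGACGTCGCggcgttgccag
Psmb6, chr11:70525157-70525356, plus strand: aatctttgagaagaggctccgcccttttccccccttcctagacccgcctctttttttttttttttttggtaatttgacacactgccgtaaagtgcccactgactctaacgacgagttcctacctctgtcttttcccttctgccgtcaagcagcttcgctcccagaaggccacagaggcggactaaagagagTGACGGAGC
Psmd10, chrX:140956729-140956928, minus strand: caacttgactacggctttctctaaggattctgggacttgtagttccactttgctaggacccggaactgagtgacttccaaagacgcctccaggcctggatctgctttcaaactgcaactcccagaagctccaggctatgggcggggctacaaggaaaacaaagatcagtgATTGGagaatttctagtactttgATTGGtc
Psmd14, chr2:61711494-61711693, plus strand: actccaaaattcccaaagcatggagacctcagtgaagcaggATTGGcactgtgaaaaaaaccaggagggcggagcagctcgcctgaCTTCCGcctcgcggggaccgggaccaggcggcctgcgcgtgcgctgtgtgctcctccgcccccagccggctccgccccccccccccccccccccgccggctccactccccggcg

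Counted back from the RefSeq start, TGACNNNGC stood at bases 47 to 39 in Psmb5 and at bases 9 to 1 in Psmb6. Both strands of the 250 bases were searched. TGACNNNGC was found in 5 of the 37 member promoters, which is 13.5%, namely Psmb5, Psmb6, Psmc6, Psmd9 and Psmd12, against 11.5% of 27025 promoters of all genes and 14.03% of the 9531 promoters of genes tested here. CCAAT was found in 13 members (35.1%, against 37.5% of all and 40.7% of tested genes), and 7 of these were core genes. CGGAAG was the motif most unevenly spread among members. It was present in 19 of 37 (51.4%, against 15.3% of all and 29.5% of tested genes), in 12 of the 17 cap promoters and in 4 of the 12 core promoters. GGGCGG, the box of Sp factors, which can share letters with CGGAAG and is not capitalised above, was present in 21 members (56.8%, against 35.4% and 62.6%). These matches describe the letters of the window and not binding.

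Libraries held 1340512 to 13995779 reads assigned to genes. Genes with reads numbered 10167 in microbead 1, 10306 in contralateral 2 and 13472 to 16531 in the other 12 libraries. Members took 0.242 to 0.376% of the reads of a library. The 8 microglia markers summed to 12203 to 27152 CPM (a gene's reads as a rate of all reads in its library, corrected with TMM factors) in the microbead libraries, under every sham library (28025 to 31684), and to 21291 to 33076 in the contralateral and 18721 to 29490 in the naive libraries. Markers of rod photoreceptors, 10 genes, summed to 455 to 3719 CPM in microbead, 1903 to 3250 in contralateral, 779 to 1456 in sham and 261 to 2822 in naive libraries. Those of Muller glia and astrocytes, 5 genes, summed to 238 to 389, 303 to 697, 235 to 382 and 305 to 363 CPM in the same order. Markers of border macrophages, 5 genes, summed to 0 to 16.1 CPM in microbead, 13.4 to 295 in contralateral, 15.6 to 168 in sham and 19.6 to 126 in naive libraries. A list of 7 genes of monocytes and infiltrating macrophages summed to 142 to 238 CPM in the microbead and 2.68 to 57.3 in the contralateral libraries. It summed to 15.03 to 189 in the sham and 3.25 to 19.7 in the naive libraries. Ly6c2, 1 of the 7, had no read in any library. In microbead 1 only Cd44 (76.8 CPM) and Vim (65.4 CPM) of this list had reads. Ccr2 stood at 0, 25.3 and 21.7 CPM in the microbead libraries and at 40.2 in sham 2. Fn1 stood at 0, 111 and 38.3 CPM in the microbead libraries and at 14.3 in sham 2. The part of these marker differences in the microbead values below was not tested.

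All but 1 member passed the filter on low counts. Psmb11, the core subunit of thymic epithelium, had no read in any library, and Psma8, the α subunit of testis, had 758 reads in all and none in 5 libraries. The remaining 14 core subunits are those of the standard core. Ranked by the mean over the 4 groups, they formed a ladder of levels, compared here as FPKM, the authors' values scaled for transcript length and depth. Psma3, an α subunit, was highest with 369 ± 92.3 FPKM (mean ± SD) in the microbead group (n = 3), 205 ± 274 in the contralateral (n = 3), 425 ± 131 in the sham (n = 4) and 384 ± 113 in the naive group (n = 4). Psmb6, which carries the caspase-like site, came next with 322 ± 25.1, 211 ± 46.6, 262 ± 89.8 and 226 ± 53.2 in the same order. Psmb7, which carries the trypsin-like site, was lowest with 50.8 ± 21.8, 73.2 ± 55.7, 33.6 ± 12.0 and 35.9 ± 9.56. The order differed between groups. In the contralateral group Psmb6 and Psmb4 (208 FPKM) lay above Psma3, and Psma4, Psma2 and Psma6 (55.8, 67.0 and 72.4 FPKM) lay under Psmb7. In the microbead group Psmb1 (341 FPKM) lay above Psmb6, and Psmb5 (69.1 FPKM) lay under Psma4 (74.6 FPKM). Averaged over the 4 groups, the steps between Psma7 and Psmb1 (204 and 203 FPKM) and among Psmb2, Psma1, Psmb3 and Psmb4 (147, 146, 144 and 143 FPKM) were smaller than the SD of each of these genes over the 14 libraries.

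**Figure D1:**
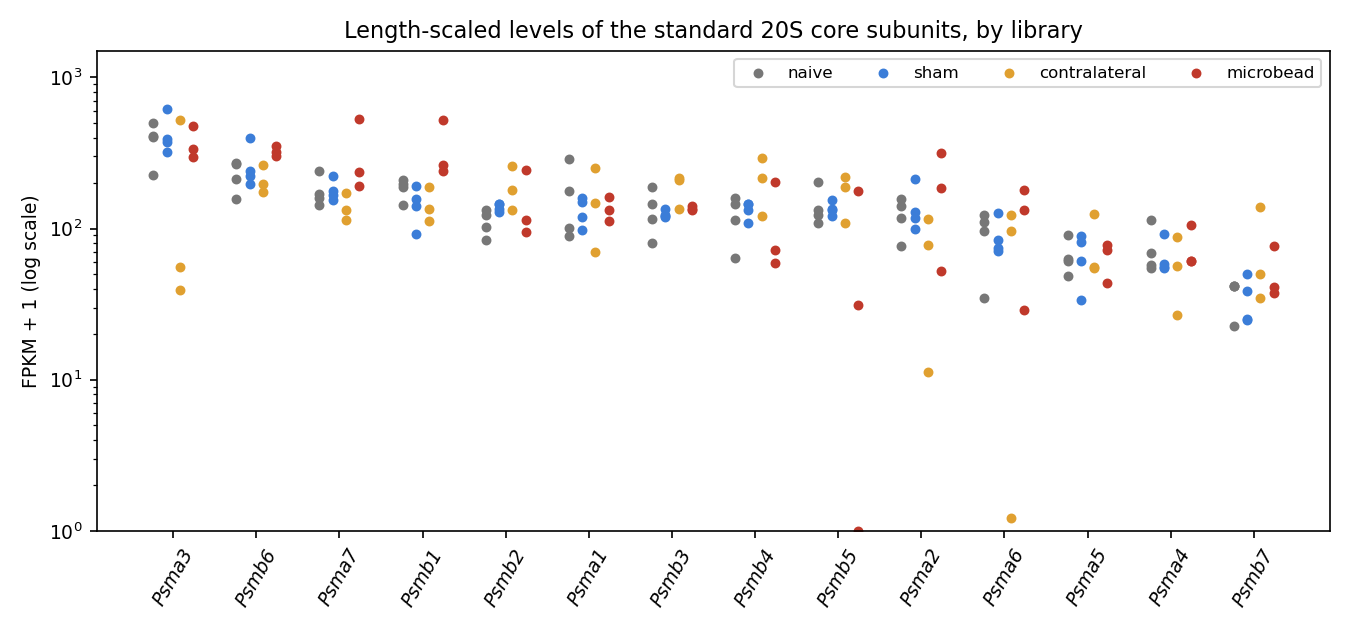
FPKM plus 1 on a log axis for the 14 standard core subunits, ordered by their mean over the 4 groups, with 1 point per library coloured by group. Psma3 and Psmb6 stand at the top and Psmb7 at the bottom, and single microbead and contralateral libraries fall far below the rest, among them Psmb5 at 0 in a microbead library and Psma6 near 0 in a contralateral one.

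Cap genes were read at lower levels per length than core genes. Their median FPKM in a library lay between 27.6 and 66.2, whereas that of the 14 core genes lay between 105 and 178. Psmc3, an ATPase of the cap, was highest (132 FPKM averaged over groups) and Psmd10, which encodes the assembly chaperone gankyrin, was lowest (20.1 FPKM). The activators split into a high and a low pair, with Psme1 and Psme2 at 338 and 204 FPKM and Psme3, which encodes the nuclear activator subunit, and Psme4 at 6.34 and 7.94. Psmf1, which encodes a proteasome inhibitor protein, stood at 19.2 FPKM, and the chaperone genes of core assembly ran from 26.4 for Psmg2 to 63.9 for Psmg3.

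Core genes were spread most widely around their common level in 2 libraries. The SD of log2(FPKM + 1) over the 14 core genes was 2.34 in microbead 1 and 2.19 in contralateral 2, the libraries with the fewest genes read, and 0.711 to 1.21 in the other 12. Over the 20 cap genes these libraries did not stand apart in the same way, with an SD of 1.97 in microbead 1 and 1.76 in contralateral 2, beside 2.17 in microbead 2 and 0.671 to 1.54 in the rest. Psmb5, which carries the chymotrypsin-like site, had no read in microbead 1, where 3 reads would be 2.15 CPM, and Psma6 stood at 0.158 CPM in contralateral 2. These subunits are required in equal number in an assembled core, and the part of sampling in these low values was not tested. Over sham and naive libraries, the 39 members with a mean of 20 to 200 CPM had a median coefficient of variation of 31.3%, against 37.9% for all 5855 genes in that range.

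The microbead retinas were compared with each other group and with the mean of sham and naive. Fold changes are log2 values from 1 model of all 14 libraries (edgeR, quasi-likelihood), with their SE, and p was adjusted by the Benjamini-Hochberg method across the 14279 genes that passed the filter and called under 0.05. No member passed against naive (0 of 44, where 0.21% of all genes passed), against sham (0, with 0.014% of all genes) or against contralateral retinas (0, with 0.028%). At an unadjusted p under 0.05, 4 members were higher and 1 lower against naive (4.72% and 5.81% of all genes), 3 were higher against sham (4.48%) and 3 were higher against contralateral (4.89%). The Wald test of DESeq2 passed 1 of 44 members against naive (Psme1, with 3.98% of all genes), 1 against sham (Psmb1, with 3.25%) and 2 against contralateral (Psmb1 and Psma7, with 4.73%), shares of the members at or under those of all genes. Limma voom passed 0 in each, where 1.43%, 0.623% and 0.021% of all genes passed. Against the mean of sham and naive, 1 of 44 members passed by edgeR (Psmb1, higher), where 1.28% of all genes did. There DESeq2 passed 3 members (Psmb1, Psme1 and Psma7, with 5.63% of all genes) and limma voom 1 (Psmb1, with 1.72%). As these are sorted cells in bulk, fewer cells of a type and less RNA per cell cannot be told apart in any of these values.

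Psmb1, a non-catalytic β subunit of the core (chr17:15475021-15499751, minus strand, GENCODE M21, GRCm38), rose in the microbead retinas. It stood at 401, 232 and 218 CPM in the microbead, 118, 171 and 72.9 in the contralateral, 99.0, 135, 112 and 62.0 in the sham and 144, 128, 92.4 and 154 in the naive libraries. Each microbead library lay above all 11 others, and above all sham and naive libraries as 3.26% of all genes did, and the other 3 groups overlapped. Relative to the mean of sham and naive the log2 fold change was 1.30 ± 0.31 (SE, edgeR adjusted p = 0.0482), and it was 1.13 ± 0.37 against naive (adjusted p = 0.263), 1.47 ± 0.37 against sham (adjusted p = 0.116) and 1.23 ± 0.41 against contralateral (adjusted p = 0.256). The value was above 0 in all 24 alternatives and called in 10 of them, and the call was lost without microbead 1 (0.95, adjusted p = 0.319), without microbead 2 (adjusted p = 0.0671), and without each sham (0.0588 to 0.0999) or each naive library (0.0642 to 0.107). It was also lost with the trend on transcript length removed (1.12, adjusted p = 0.269).

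**Figure D2:**
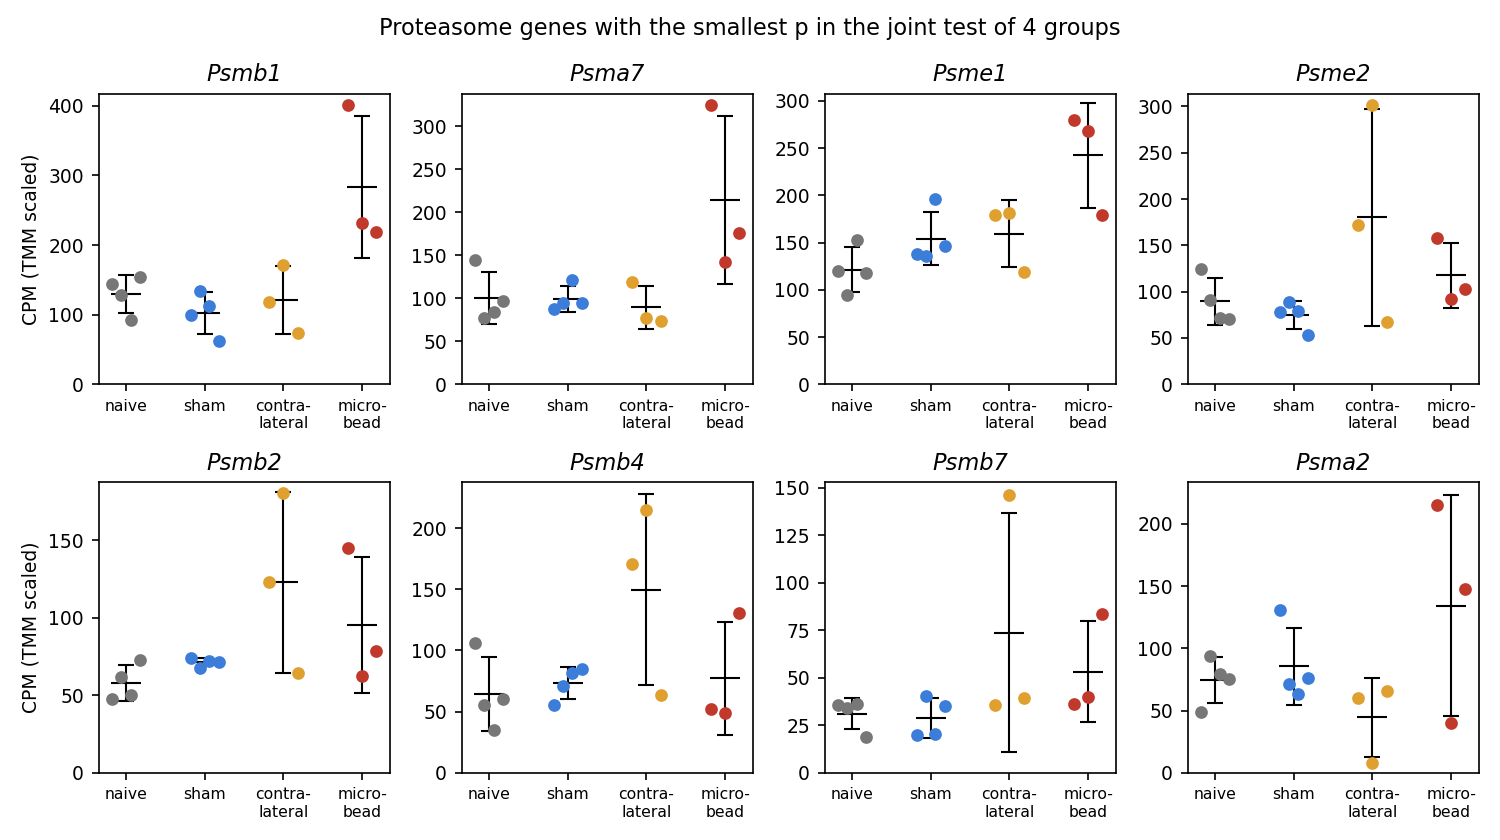
CPM of the 8 members with the smallest p in the joint test of 4 groups, with 1 point per library and the mean ± SD of each group in black (3 microbead, 3 contralateral, 4 sham and 4 naive libraries). The microbead points of Psmb1 stand above all others, whereas in Psmb2, Psmb4, Psmb7 and Psme2 the highest point is a contralateral library.

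Psma7, an α subunit of the core, stood at 325, 143 and 176 CPM in the microbead, 119, 77.1 and 73.6 in the contralateral, 87.0, 94.0, 121 and 94.7 in the sham and 144, 77.6, 83.9 and 97.3 in the naive libraries. The microbead values lay above every sham and contralateral library, and 1 of them lay just under the highest naive library. The log2 fold change was 1.09 ± 0.37 against naive and 1.10 ± 0.31 against the mean of sham and naive, neither of which passed (adjusted p = 0.281 and 0.112 by edgeR). With the trend on transcript length removed, it was 0.64 ± 0.38 against naive (edgeR adjusted p = 0.571). Psmb6, whose promoter with a TGACNNNGC is printed above, stood at 171, 177 and 195 CPM in the microbead libraries, compared with 129.6, 71.3, 93.2 and 129 in the naive libraries. Its 3 values lay above all naive libraries but overlapped with sham, where 1 library reached 192 CPM (against naive 0.78 ± 0.36, adjusted p = 0.466). With the length trend removed, Psmb6 gave 0.17 ± 0.36 against naive (edgeR adjusted p = 0.936). Psmb5 stood at 0, 20.6 and 126 CPM in the microbead libraries, a range that takes in all 4 sham values, 62.8 to 87.0 CPM (against naive -0.65 ± 0.86, adjusted p = 0.888).

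Psmb2, Psmb4 and Psmb7 are also among the 8 members with the smallest p in a joint test of the 4 groups. Their highest library was contralateral 2, with 10306 genes read. Psmb2 stood at 145, 62.7 and 78.6 CPM in the microbead and 123, 181 and 64.5 in the contralateral libraries, against 67.8 to 74.0 in sham and 47.5 to 72.5 in naive. Psmb4 reached 171 and 215 CPM in 2 contralateral libraries, and its microbead values of 52.4, 48.7 and 130.2 overlapped with every group. Psmb7 had 1 contralateral library at 146 CPM and 1 microbead library at 83.7 CPM, and the other 12 stood between 18.9 and 40.6. Exons of Psmb7 overlap over 405 bases with Nek6 on the opposite strand, so reads of the 2 genes may not be separable. Psma2, an α subunit, ran from 39.7 to 215 CPM in microbead and from 8.20 to 65.6 in contralateral libraries. Psma8 stood at 0, 2.90 and 23.3 CPM in the microbead and at 0 to 12.7 in the naive libraries, and Psma1, another α subunit, gave 0.03 ± 0.48 against naive. None of the 44 members passed the joint test of 4 groups by edgeR (0.224% of all genes did), 4 had an unadjusted p under 0.05 (Psmb1, Psma7, Psme1 and Psme2, with 8.17% of all genes), DESeq2 passed 2 (Psmb1 and Psma7, with 3.17%) and limma voom passed 0 (0.609%).

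As a class, core genes lay above 0 more often than cap genes. Against naive, 14 of 15 core genes had a positive log2 fold change with a median of 0.68, whereas 10 of 20 cap genes did with a median of 0.00, and 45.0% of all genes tested did with a median of -0.14. Against sham the count was again 14 of 15 core genes (median 0.46) and 4 of 20 cap genes (median -0.22), beside a median of -0.12 over all genes. Against contralateral it was 9 of 15 (median 0.41) and 4 of 20 (median -0.57). These comparisons share the microbead libraries. In CPM, the members that did not overlap with naive were 3 higher (Psmb1, Psmb6 and Psme1, where 4.85% of all genes were) and 1 lower (Psmc3, where 6.98% were). Against sham, 5 members were higher without overlap (Psma7, Psmb1, Psmb3, Psmc5 and Psme2, with 5.11% of all genes), and against contralateral 3 were (Psma7, Psmb1 and Psmb6, with 5.2%). In FPKM, Psme1 and Psmc3 were not apart from naive, nor were Psma7, Psmb3, Psmc5 and Psme2 from sham.

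**Figure D3:**
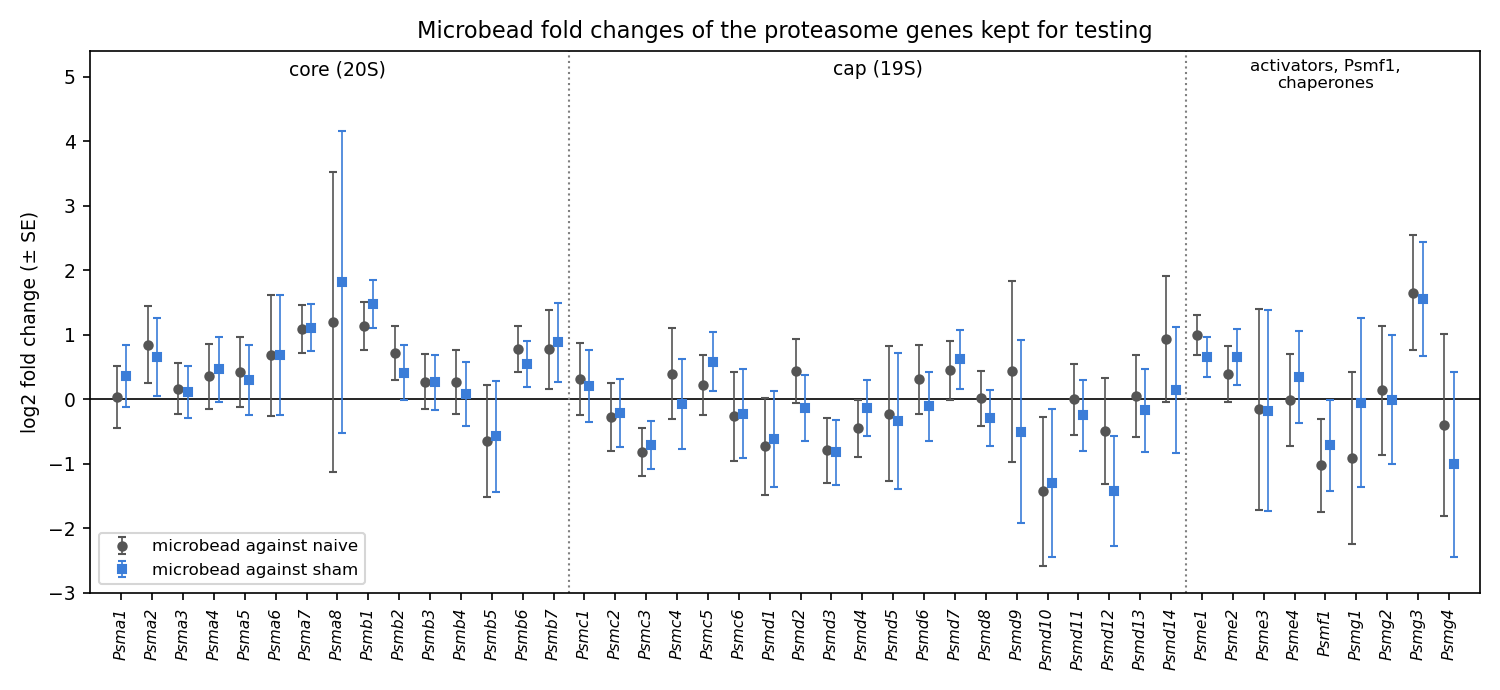
Log2 fold change ± SE of the 44 members tested, microbead against naive (circles) and against sham (squares), with dotted lines between core, cap and the remaining classes. Core genes other than Psmb5 lie above 0 in both comparisons, cap genes lie on both sides, and most error bars cross 0.

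Summed over a class, the 3 microbead libraries held 1374 to 1916 CPM of core transcripts, above all sham (1024 to 1275) and naive libraries (1014 to 1296), and 1 contralateral library reached 1689. For the cap the groups overlapped. Its sum was 935 to 1605 CPM in microbead and 1407 to 2111 in contralateral retinas, beside 1237 to 1546 with sham injection and 1037 to 1436 in naive retinas. Activators summed to 315 to 470 CPM in microbead libraries, above the 247 to 291 of sham and the 220 to 309 of naive. They overlapped with the 219 to 535 of contralateral libraries. Summed in FPKM, core genes and activators overlapped with sham and naive. Core sums were then 1995 to 2828 in microbead, 1872 to 2256 in sham and 1838 to 2220 in naive libraries. Activator sums were 425 to 943, 420 to 541 and 380 to 547 in the same order.

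**Figure D4:**
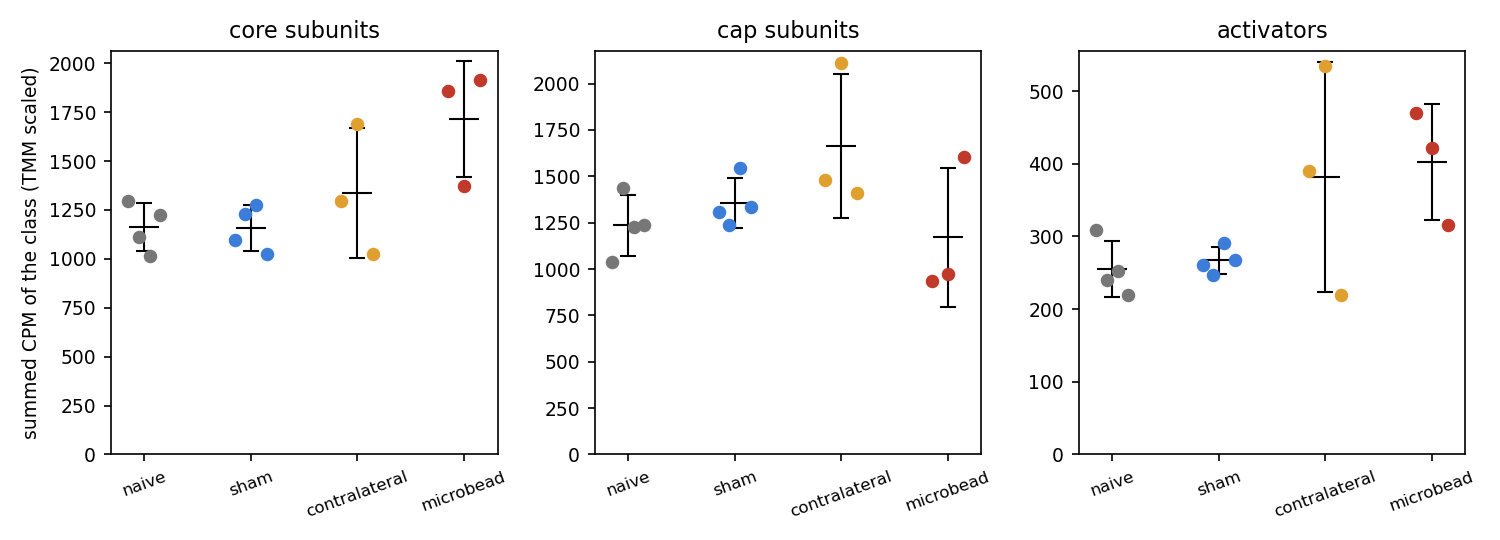
Summed CPM of the core, cap and activator genes, with 1 point per library and mean ± SD per group in black. The microbead points lie above all sham and naive points for core and activators but not for the cap, and the contralateral points span the widest range in all 3 classes.

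Core transcripts are short, and transcript length moved with the microbead fold changes. The median length was 944 bases for core genes, 1437.5 for cap genes and 2116 for all genes tested. Over the 44 members, the fold change against naive had a correlation of -0.33 (Pearson) and -0.37 (Spearman) with log2 length, points that share the same libraries. Relative to the naive mean, the median log2 level of core genes was 0.26 to 0.84 in the microbead libraries, and that of all genes of at most 1000 bases was -0.22 to 0.65. With the length trend of each library removed, the core median fell to 0.24 against naive (10 of 15 above 0) and 0.21 against sham (9 of 15), and the cap median was 0.04 and -0.16. All-gene medians were then 0.00 and -0.00, and the correlation of the members' fold change against naive with length was 0.17 (Pearson) and 0.08 (Spearman). Against contralateral the core median turned from 0.41 to -0.02 (7 of 15 above 0), and the cap median was -0.75, beside an all-gene median of -0.22. Unadjusted p was then under 0.05 for 1 member higher against naive (5.26% of all genes), 1 higher against sham (4.93%), and 0 higher and 5 lower against contralateral (8.68% of all genes lower). The gap between the core and cap medians was thus smaller with the trend removed, and against naive the core genes Psma1, Psma3, Psmb3 and Psmb4 turned below 0 (-0.15, -0.47, -0.31 and -0.20), as did the activator gene Psme2 (-0.20).

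**Figure D5:**
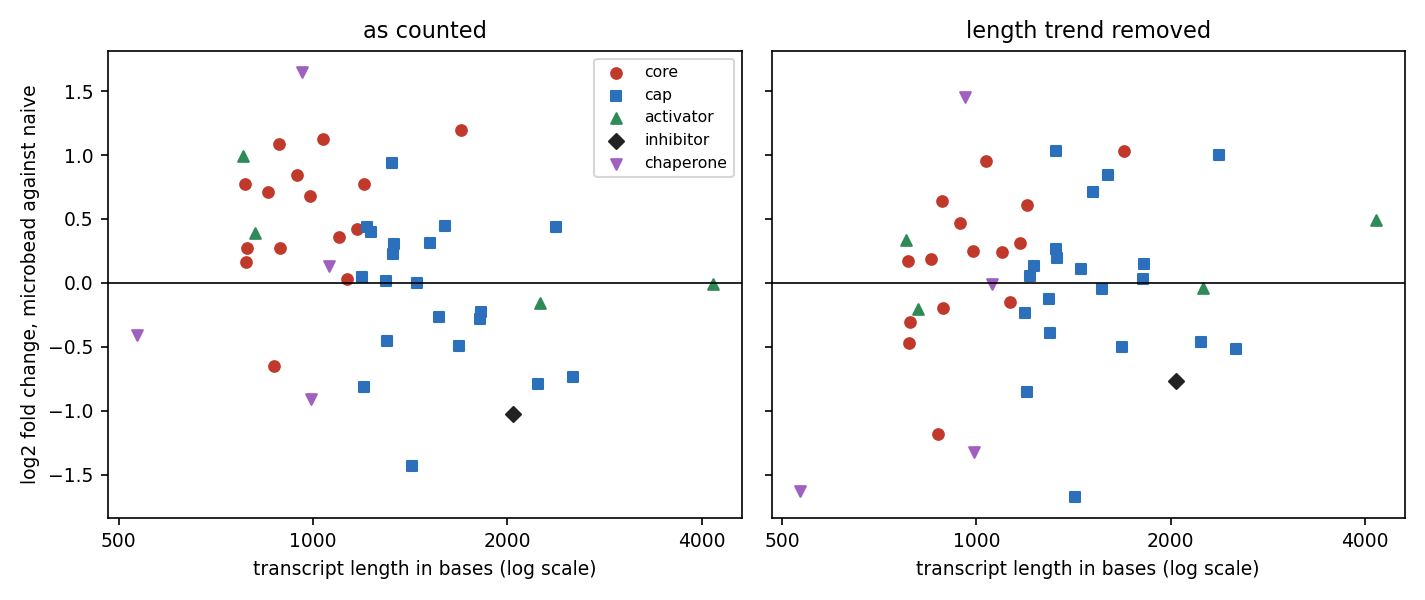
Log2 fold change of the 44 members in microbead against naive plotted on transcript length (log axis), by class, as counted on the left and with the length trend of each library removed on the right. Short core genes lie mostly above 0 on the left and on both sides of 0 on the right.

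No cap gene was called in any of these comparisons by edgeR, DESeq2 or limma voom. Psmc3 had the smallest p of the cap against naive and stood at 86.2, 44.2 and 109 CPM in the microbead, 101, 111, 171 and 137 in the sham and 162, 144, 112 and 144 in the naive libraries. All microbead CPM values lay under all naive ones, with the closest pair at 109 and 112 CPM (log2 fold change -0.81 ± 0.37, adjusted p = 0.462). In FPKM this did not hold, as microbead 1 stood at 194, above the naive libraries at 124 to 180. Exons of Psmc3 overlap over 215 bases with Slc39a13 on the opposite strand. Psmd7, a non-catalytic lid subunit, had values of 116, 88.3 and 63.7 CPM in microbead and 57.6 to 69.6 in naive libraries (0.45 ± 0.46). Psmd14, the deubiquitinase of the cap, stood at 80.4, 30.9 and 102 CPM in microbead and 22.3 to 53.6 in naive libraries, and had no read in contralateral 2 (against naive 0.93 ± 0.97).

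Psmd5, Psmd9 and Psmd10 encode assembly chaperones of the cap's base. Psmd10 gave 0.718, 0.223 and 25.8 CPM with microbeads, and 15.2, 36.8, 28.4 and 18.1 in the naive libraries. Microbead 3 lay within the naive range and the other 2 far under it (-1.43 ± 1.15 against naive, adjusted p = 0.731). Without microbead 3 the value was -6.04 (edgeR adjusted p = 0.0453). Psmd9 had no read in microbead 1 and naive 4 and 150.4 CPM in contralateral 2, and Psmd5 had none in microbead 2.

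Psme1 had the smallest p of all 44 members against naive. It stood at 280.1, 268 and 179 CPM in the microbead, 179, 181 and 119 in the contralateral, 138, 136, 196 and 146 in the sham and 120.1, 94.9, 153 and 118 in the naive libraries. In CPM every microbead library lay above every naive one, and 1 of them lay within the sham range. The log2 fold change was 1.00 ± 0.31 against naive (edgeR adjusted p = 0.210), 0.65 ± 0.31 against sham (adjusted p = 0.507) and 0.60 ± 0.33 against contralateral (adjusted p = 0.485). The Wald test of DESeq2 gave 1.07 and an adjusted p of 0.0198 against naive. With the trend on transcript length removed, the edgeR value of Psme1 against naive was 0.34 ± 0.35 (adjusted p = 0.812).

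Psme2, its partner in the activator ring, lies on the same chromosome (Psme1 at chr14:55578123-55581529 and Psme2 at chr14:55587441-55591113). Psme2 stood at 158, 91.8 and 103 CPM in the microbead, 172, 302 and 67.7 in the contralateral, 78.3, 88.7, 78.6 and 53.5 in the sham and 125, 91.3, 71.2 and 71.0 in the naive libraries. Microbead values lay above all sham values and overlapped with naive, and the highest library was contralateral 2. Psme2b, a copy 99.4% identical in sequence, took reads equal to 54.1% of those of Psme2, and the authors' counting may have split reads between them. The sum of both was 156 to 256 CPM in microbead, 104 to 404 in contralateral, 92.5 to 125 in sham and 103 to 202 in naive libraries, with the same overlaps as Psme2 alone. Fold changes of Psme2 were 0.39 ± 0.44 against naive and 0.65 ± 0.43 against sham (adjusted p = 0.848 and 0.664). The ratio of Psme1 to Psme2 in FPKM was 1.89 to 3.84 in microbead, 0.802 to 1.75 in contralateral, 1.46 to 2.67 in sham and 1.03 to 2.08 in naive libraries. Microbead ratios thus lay above all contralateral ones and overlapped with sham and naive.

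Psme3 and Psme4 were sampled at low levels. Psme3 stood at 0.718, 36.3 and 0.264 CPM in the microbead libraries, had no read in contralateral 2 and ran from 3.86 to 31.3 CPM in sham and naive libraries (against naive -0.16 ± 1.55). Psme4, which encodes the large nuclear activator, stood at 25.4 to 33.4 CPM in microbead and 19.3 to 41.9 in naive libraries (-0.01 ± 0.72). Psmf1 was 10.8, 44.0 and 10.3 CPM in microbead and 23.4 to 78.1 in naive libraries, which overlapped (-1.03 ± 0.72, adjusted p = 0.662). Of the chaperone genes, Psmg3 had the highest fold change of any member (1.65 ± 0.89, adjusted p = 0.529), which came from 1 microbead library at 167 CPM. The other 2 stood at 14.7 and 13.6 CPM, within the naive range of 13.3 to 32.8, and without libraries under 12000 genes the value was -0.56. Psmg1 (-0.91 ± 1.34), Psmg2 (0.14 ± 1.00) and Psmg4 (-0.40 ± 1.41) had SEs larger than their fold changes.

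Contralateral, sham and naive retinas were compared to ask whether contralateral or sham-injected retinas differed from naive ones or from each other. By edgeR no member passed in contralateral against naive, contralateral against sham or sham against naive, where 0.0% of all genes passed in each. Unadjusted p was under 0.05 for 3 members higher in contralateral against naive (Psmb2, Psmb4 and Psme2, with 2.9% of all genes), 3 higher in contralateral against sham (Psmb7, Psmc5 and Psme2, with 2.79%) and 0 in sham against naive (2.66%), and limma voom passed 0 of 44 members (0.0% of all genes) in each. DESeq2 also passed 0, where 0.497%, 0.504% and 0.196% of all genes passed. With the length trend removed, unadjusted p was under 0.05 for 9 members higher in contralateral against naive (7.74% of all genes) and 7 higher against sham (7.33%). Contralateral 2 was the highest library in Psmb2, Psmb4, Psmb7 and Psme2. Without it and microbead 1, the libraries under 12000 genes, unadjusted p was under 0.05 against naive for 2 cap genes, both higher. That fit had 0 core and 0 activator genes under 0.05 against naive, and 0 members against sham. The share of all genes under 0.05 in that fit is not given here, so these counts do not set the cap apart. In contralateral against naive the cap median was 0.63 on the log2 scale (14 of 20 genes above 0), compared with 0.14 for core genes and -0.06 for all genes. Without libraries under 12000 genes, which leaves out contralateral 2, the cap median was 0.16, and with the length trend removed it was 0.88 (18 of 20 above 0), beside an all-gene median of 0.19. In CPM, Psmd8 and Psmd9 were higher in every contralateral than in every naive library (2 of 44, where 2.49% of all genes were). Psmd9 overlapped in FPKM. Sham and naive lay closest, with a member median of 0.03 and an all-gene median of -0.02, and Psmd12, a lid subunit, was the only member higher in every sham library (53.6 to 68.4 CPM) than in every naive one (20.1 to 44.6 CPM, where 1.61% of all genes were).

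The immunoproteasome subunits, which replace the active β subunits after interferon, were read beside the members. Psmb8 stood at 186, 321 and 303 CPM in the microbead and 110.1 to 254 in the naive libraries, Psmb9 at 147, 127 and 101 against 44.3 to 72.3, and Psmb10 at 157, 109 and 151 against 42.3 to 107. In CPM, Psmb9 and Psmb10 were thus higher in every microbead than in every naive library (as 4.85% of all genes were), Psmb10 narrowly. Psmb8 overlapped. In FPKM all 3 overlapped. Psmb9 stood at 88.4 FPKM in microbead 3 and reached 92.7 in naive, and Psmb10 stood at 93.6 in microbead 2 and reached 111 in naive. Fold changes against naive were 0.71 ± 0.33, 1.04 ± 0.42 and 0.87 ± 0.55, and 0 of 3 passed in any comparison. Set against the subunit it replaces, Psmb8 had a FPKM ratio to Psmb5 of 1.52 and 8.81 in the 2 microbead libraries with reads of Psmb5, and of 0.716 to 2.11 in naive libraries. Psmb9 to Psmb6 was 0.278 to 0.579 in microbead and 0.292 to 0.534 in naive libraries, and Psmb10 to Psmb7 was 1.66 to 3.92 and 1.16 to 4.93. All 3 ratios overlapped between these groups.

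The wider pathway was counted from lists of genes for assembly, cap-associated factors, transcription control, ubiquitin, and shuttles and unfoldases. Calls were made in the ubiquitin list only, and only against the mean of sham and naive. Rps27a, which encodes ubiquitin fused to a ribosomal protein, rose there. It stood at 1059.3, 423 and 483 CPM in the microbead libraries, at 163 to 310.0 in the naive and at 162 to 252 in the sham libraries, so that its microbead values lay above all sham and naive values (1.57 ± 0.30, edgeR adjusted p = 0.0147). Without microbead 1 the value was 1.02 (adjusted p = 0.153), and with the length trend removed it was 0.65 (adjusted p = 0.377). In the same comparison the polyubiquitin gene Ubb gave 0.23 ± 0.22.

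In the assembly list 0 of 3 passed. Pomp, the maturation factor of the core, stood at 156, 172 and 188 CPM in the microbead and 73.9 to 122 in the naive libraries (0.91 ± 0.31, adjusted p = 0.298). It was thus higher without overlap in CPM, as 4.85% of all genes were, and its FPKM is not given here. Akirin2, which brings proteasomes into the nucleus, stood at 2.15 to 5.47 CPM against 3.82 to 28.3 (-2.13 ± 1.09, adjusted p = 0.504). Of 9 cap-associated genes 0 passed, among them Sem1, a small cap subunit (1.63 ± 0.64, adjusted p = 0.397), Zfand5 (0.93 ± 0.46, adjusted p = 0.493) and the deubiquitinase Usp14 (-0.06 ± 0.65). Sem1 and Zfand5 each had 1 microbead library, microbead 1, far above the rest (238 and 505 CPM). In transcription control 0 of 6 passed, and Nfe2l1, which drives proteasome genes when proteasome activity falls, stood at 17.2, 0.446 and 21.2 CPM in microbead, 53.0, 166 and 32.4 in contralateral and 7.005 to 65.7 in naive libraries (against naive -1.27 ± 0.97). Of 10 shuttle and unfoldase genes 0 passed, with Vcp, the unfoldase, at -0.18 ± 0.35.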

How the data were processed

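Each library has a deposited table with expected counts (estimated reads per gene), FPKM, TPM and lengths per gene. Per the file headers, expected counts are not scaled, and FPKM and TPM were scaled by the authors to effective length and depth; TPM was not used further. Tools named in the submitters' processing notes, with no role given, are Salmon 1.4.0, DESeq2 1.30.1 and R 4.0.3, beside build mm10. The strand setting was not found in these notes or in the labels. After rounding, they were fitted with edgeR 4.0.16 (R 4.3.3): filterByExpr (minimum count 10, 14279 genes kept), TMM factors, and a robust quasi-likelihood fit with 1 coefficient per group over 14 libraries (10 residual degrees of freedom). P-values are two-sided, adjusted by Benjamini-Hochberg over all genes. Standard errors are the log2 fold change over the root of F. The procedure was tested on simulated data. Alternatives were the size factors and Wald test of DESeq2 1.42.0, limma 3.58.1 voom with quality weights, no filter, a minimum count of 50, only the groups compared, the replicate number as a block, removal of a lowess trend (span 0.5) of log2 CPM on length, only identifiers in the authors' table, and leaving out libraries under 12000 genes or each library in turn. Coordinates are from GENCODE M21 (all 45 members matched by identifier). Copies are transcripts at least 90% identical over at least 200 bases (blastn 2.17.0). No molecular identifiers mark PCR copies, and the floor of 3 reads therefore covers counting error only.

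Members and lists were chosen with earlier results of these data known. Genes named were those with an adjusted p under 0.05 anywhere, the 8 with the smallest joint p, the 2 highest and 2 lowest fold changes against naive of core, cap and the rest, the highest and lowest FPKM of each class, Psmb5 to Psmb7, Psme, Psmf and Psmg genes, those removed by the filter, and up to 4 genes per related list. Members without overlap between groups, those at 0 in a library, those with shared reads and single marker genes were named after their values were seen. Some genes of the related lists are not reported here.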

Additional observations from a re-analysis of the deposited data

Results flagged for a closer look

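Psmb7 stood at 18.9 CPM in naive 4, while the other 3 naive libraries lay between 34.1 and 36.0 CPM, a gap large for a group of 4. Psme1 stood at 196 CPM in sham 3, while the other 3 sham libraries lay between 136 and 146 CPM. These were 2 of 22 groups of 4 examined, and chance flags about 1 in 20.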

How the results depend on the processing

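Counts of members called moved with the method. DESeq2's Wald test called 1, 1, 2 and 3 members in microbead against naive, sham, contralateral and the mean of sham and naive, and 2 in the joint test (3.98%, 3.25%, 4.73%, 5.63% and 3.17% of all genes), where edgeR called 0, 0, 0, 1 and 0. Against the mean, 0 were called with no filter, the length trend removed, or without libraries under 12000 genes. Leaving out each library gave 0 to 1 against naive, 0 to 1 against contralateral and 0 to 2 against the mean. Psmb1 lost its call without microbead 1 or 2 and without each sham or naive library (adjusted p 0.0588 to 0.319 over these), and with no filter (0.0669). The cause was not tested. The member median turned from 0.04 against sham to -0.0087 with no filter and -0.065 without the length trend, and against the mean from 0.16 to -0.0050 without the length trend. Leaving out libraries gave medians of 0.0008 to 0.308 against naive, -0.176 to 0.154 against sham, -0.368 to -0.078 against contralateral and 0.0263 to 0.230 against the mean. Removing that trend moved the all-gene median against naive from -0.14 to 0.00.

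With the length trend removed, core genes above 0 went from 14 to 10 of 15 against naive and from 14 to 9 against sham. Among the genes named, Psma1, Psmb4 and Psme2 turned to -0.15, -0.20 and -0.20 against naive, and Psmb2 and Psmb4 to -0.13 and -0.44 against sham. Without libraries under 12000 genes, Psmg3 turned to -0.56 against naive and -0.66 against sham, Psmb2 to -0.043 and Psmg1 to 0.47 against sham. Psmd14 turned to -0.029 against sham with limma voom. Leaving out libraries turned Psma1 (-0.19 to 0.51), Psma8 (-1.36 to 3.20), Psmb4 (-0.35 to 0.61) and Psmg3 (-0.56 to 2.12) against naive, and Psma8 (-0.74 to 5.37), Psmb2 (-0.043 to 0.62), Psmb4 (-0.55 to 0.30), Psmd14 (-0.24 to 0.47), Psmg1 (-0.63 to 0.59) and Psmg3 (-0.66 to 2.02) against sham.

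The replicate number as a block gave 0 calls against the mean (Psmb1 adjusted p = 0.171) and a Psmg1 value of 0.46 against sham; member medians were 0.21, 0.13, -0.30 and 0.16 against naive, sham, contralateral and the mean. Same-numbered libraries were correlated at -0.110 to 0.164 over 19 pairs, 3 of them above 0.1, and other pairs between groups at -0.144 to 0.175. Same-numbered microbead and contralateral libraries stood at 0.072, -0.005 and 0.104. The numbers were not taken to pair samples, but these values cannot tell whether such libraries came from the same mouse. Depth limits single libraries: in microbead 1, with 1340512 reads, 3 reads are 2.15 CPM.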
